A study of Arabidopsis thaliana with 6 samples.

Results

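The mitochondrial genome of Arabidopsis thaliana encodes part of the respiratory chain and part of the machinery that assembles cytochrome c. Its genes were taken by name: annotation symbols beginning with nad, cox, cob or ccb, no plastid locus, and a probe set (the set of array oligonucleotides for a transcript) listed for that gene alone. The rule found 14 genes among the 13355 genes with a named probe set, and all 14 matched a mitochondrial gene of the RefSeq annotation by symbol or synonym. They are 8 nad genes (nad1, nad2, nad4, nad4L, nad5, nad6, nad7 and nad9), 2 cox genes (cox1 and cox2) and 4 ccb genes, which RefSeq now calls ccmFN2 (ccb203), ccmB (ccb206), ccmFN1 (ccb382) and ccmFC (ccb452). No cob gene met the rule, and nad3, cox3 and ccb256 are not analysed by name here. Where a gene had several probe sets, the brightest by its mean over all samples of both genotypes stood for it. Together the 14 genes had 21.

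Whole seedlings of the Col-0 accession were compared in 2 genotypes with 3 biological replicates each, wild type and cdkf;1-2, a T-DNA insertion mutant of the gene for the cyclin-dependent kinase CDKF;1. Both genotypes were 7 days old (the labels count from sowing in one place and from germination in another), grew on plates with 0.5% sucrose at 22 °C in short days (8 h light, 16 h dark) and were harvested 4 h into the light period. The mutant is represented by a single insertion allele, the number of plants behind a sample is not given in the labels, and no value of the CDKF;1 transcript is used here to check the genotypes. The labels call the replicates biological, and nothing says whether they were grown separately, so p-values measure only the spread between these samples.

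In plant mitochondria the nad genes encode membrane and peripheral-arm subunits of complex I, the NADH dehydrogenase that starts the respiratory chain. The cox genes encode the catalytic core of complex IV, which passes electrons to oxygen, and the ccb (ccm) genes encode proteins that move and attach heme during cytochrome c maturation. The remaining subunits of these complexes are made from nuclear genes and imported. Several nad transcripts carry introns that nuclear-encoded factors splice, and nad1, nad2 and nad5 are pieced together from separately transcribed parts. Mitochondrial transcripts have no stable poly(A) tail; in plant organelles such a tail marks RNA for decay. Labelling here started from total RNA with a linear amplification kit that primes on poly(A), so how closely a signal follows the amount of a mitochondrial transcript was not tested.

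The arrays differed in overall brightness. Wild type arrays had median deposited signals of 85.0 to 104, and mutant arrays 1 to 3 had medians of 64.1, 89.1 and 114. Signals were therefore quantile-normalized, and differences are on a log2(signal + 16) scale. Adding 16 makes changes of dim transcripts look smaller than they are. Of the 14 genes, 12 had a mean signal below the median of all 22746 probe sets tested. Signals of different probe sets do not rank transcript levels. Relative to the array median, the control for 25S ribosomal RNA read 2.05-fold higher in the mutant and the bacterial poly(A) controls 1.69-fold higher (exact permutation p = 0.1 for each with n = 3 per group, the smallest possible). The control for 5S ribosomal RNA read 1.09-fold higher (exact permutation p = 0.8), with mutant samples on both sides of wild type. The 3' to 5' ratio of GAPDH was lower in the mutant by its first probe set pair (log2 -0.25) and higher by its second (log2 0.19), and in both the groups did not overlap. That of ubiquitin was lower by both pairs (log2 -0.39 and -0.22) and that of actin higher by both (log2 0.12 and 0.30). The summed signal of 4 measured leaf markers of 5 listed ran from 33499 to 33979 over the wild type samples and from 26105 to 27279 over the mutant samples. Of the 4, PSAN and PRK had all mutant samples below wild type (log2 -0.59 and -0.72). RCA and LHCB4.1 overlapped between the genotypes (log2 -0.17 and -0.15). The 3 of 3 measured root and root hair markers summed to 314 to 375 in wild type and 57.8 to 130 in the mutant. Of 5 listed seed reserve markers 2 were measured and did not move alike. ICL, a glyoxylate cycle enzyme gene, read 59.9 to 103 in wild type and 792 to 1320 in the mutant, while AT1G03890 read 1.40 to 22.4 and 2.89 to 6.20. Neither of the 2 pollen markers was measured. The part of these shifts in the results below was not tested. In RNA from whole seedlings, fewer cells or fewer mitochondria and less RNA in each cannot be told apart.

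Few mitochondrion-encoded genes differed between the genotypes past the test. In cdkf;1-2 seedlings nad9 rose and nad4 fell, and the other 12 genes did not pass (limma, Benjamini-Hochberg over all probe sets, threshold 0.05). As ratios of signal + 16, nad9 was 1.48-fold higher and nad4 2.11-fold lower than in wild type, which understates the change in signal. With 1 in place of 16 the differences were log2 0.77 and -1.72 (limma adjusted p = 0.0536 and 0.0990). The genes called in the reported setting are 14.3% of the 14, and limma called 14.4% of all probe sets, so the share called lay at the background. By direction the background was 6.94% called higher and 7.42% called lower. At an unadjusted threshold of 0.05, 5 of the 14 were higher and 1 lower, where 14.0% of all probe sets were higher and 15.6% lower. The median difference of the 14 was log2 0.29, beside -0.01 for all probe sets, and 10 of the 14 differences (71.4%) were above 0 against 49.0% of all probe sets, while under scaling on the poly(A) controls the median turned to -0.24 and 3 were above 0. Replicates of the genotypes did not overlap, with the mutant above wild type, for 6 of the 14 (42.9%), where 15.8% of all probe sets showed this. Of these 6, nad1 entered by a probe set chosen as the brightest over all samples, mutant included. In wild type alone another nad1 probe set was brighter (mean log2 6.26 against 6.07), and its groups overlapped (log2 -0.51). The choice also enters the median and the count above 0. With the mutant below wild type the groups did not overlap for 1 of the 14, against a background of 18.1%. The count above wild type was 0 under poly(A) control scaling and 4 with trimmed mean scaling. Over all 21 probe sets of the 14 genes the share above wild type was 28.6%, with a median difference of 0.16. Averaging the probe sets of each gene gave a median of 0.20, with 9 genes above 0.

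**Figure D1:**
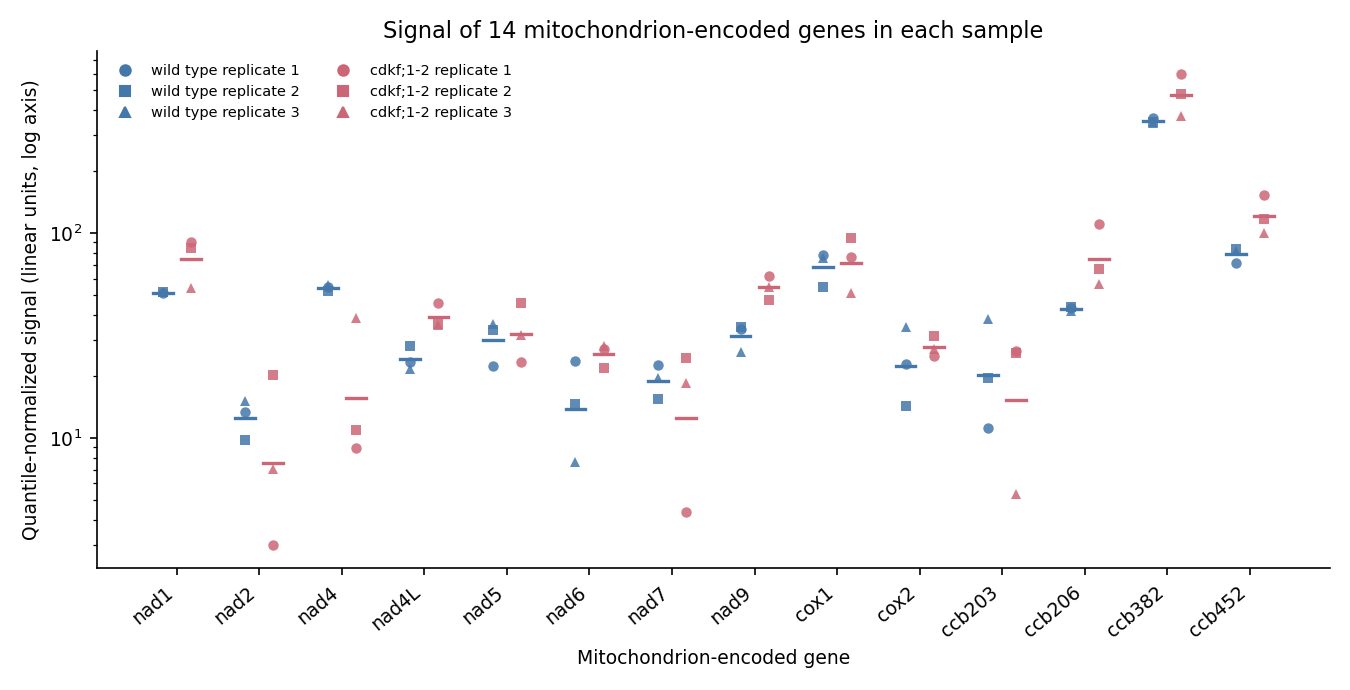
Quantile-normalized signal (linear units on a log axis) of the 14 genes in each of the 6 samples, with wild type in blue, cdkf;1-2 in red, a marker shape for each replicate number and a bar at the geometric mean of each group. The mutant points lie above all wild type points for nad1, nad4L, nad9, ccb206, ccb382 and ccb452 and below them for nad4.

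Among the complex I genes, nad4 changed most. It encodes a subunit of the proton-pumping membrane arm. Its signal was 54.6, 52.1 and 56.0 in the wild type replicates, in order, and 8.99, 10.9 and 38.6 in those of the mutant. The wild type samples lay close together, and the mutant samples all lay below them but spread widely, with replicate 3 nearest to wild type. The difference was log2 -1.08 (SE 0.29, 95% interval -1.74 to -0.41, limma adjusted p = 0.0457). The call was lost without wild type replicate 1, 2 or 3 (adjusted p = 0.119, 0.126 and 0.1199) and without mutant replicate 1 or 2 (adjusted p = 0.0837 and 0.131), where the difference was between -1.09 and -0.90; without mutant replicate 3 it was -1.40 (adjusted p = 0.00477). Because mutant signals were low, the size depended on the added constant and was log2 -1.72 with 1 in place of 16 (adjusted p = 0.0990).

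The complex I gene that rose, nad9, encodes a subunit of the arm that reaches into the matrix. Wild type signals were 33.9, 35.0 and 26.3, and mutant signals were 61.8, 47.3 and 54.8. All 3 mutant samples lay above all wild type samples. The difference was log2 0.57 (SE 0.14, 95% interval 0.24 to 0.89, limma adjusted p = 0.0357). The call was lost when any sample was left out (adjusted p = 0.0833, 0.0899 and 0.09997 without wild type replicates 1 to 3, and 0.0558, 0.0558 and 0.0992 without mutant replicates 1 to 3). The difference then lay between 0.49 and 0.64. Under poly(A) control scaling it was 0.04 (adjusted p = 0.853).

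For nad4L, which encodes a small membrane-arm subunit, wild type signals were 23.5, 28.1 and 21.6 and mutant signals 45.5, 35.8 and 35.7. The groups did not overlap, but the difference did not pass (log2 0.44, SE 0.13, limma adjusted p = 0.0659). The membrane subunit gene nad6 had signals of 23.8, 14.6 and 7.60 in wild type and 27.2, 21.9 and 28.1 in the mutant. Wild type replicate 1 lay among the mutant samples, and the difference did not pass (log2 0.44, SE 0.20, limma adjusted p = 0.189). The nad6 probe set is of a kind that matches several transcripts, as are those of nad5 and ccb452, so related sequences could add to these 3 signals.

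For nad2, nad5 and nad7 the groups overlapped. For nad2, a membrane-arm subunit gene, signals were 13.3, 9.81 and 15.1 in wild type and 3.02, 20.2 and 7.03 in the mutant (log2 -0.19, SE 0.24, limma adjusted p = 0.658). For nad5, another membrane-arm subunit gene, they were 22.5, 33.6 and 35.9 in wild type and 23.4, 45.4 and 31.9 in the mutant (log2 0.07, SE 0.20, limma adjusted p = 0.856). For nad7, a matrix-arm subunit gene, they were 22.7, 15.5 and 19.7 in wild type and 4.33, 24.7 and 18.5 in the mutant (log2 -0.20, SE 0.25, limma adjusted p = 0.660). In nad2 and nad7 mutant replicate 1 was the lowest of all 6 samples and mutant replicate 2 the highest. The 95% intervals of these 3 differences reached from -0.80 to 0.54 on the log2(signal + 16) scale, so changes in either direction were within the error. Signals of nad2 and nad7 were at most 24.7, so the added 16 narrows their intervals. With 1 in its place the differences were -0.62 (SE 0.59) for nad2 and -0.53 (SE 0.59) for nad7.

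The nad1 gene, whose product is a membrane-arm subunit near the quinone site, had 7 probe sets of its own, and they did not move alike. The brightest read 51.1, 51.3 and 51.4 in wild type and 90.0, 84.9 and 54.1 in the mutant. The groups did not overlap there, although mutant replicate 3 stood just above wild type (log2 0.43, SE 0.17, limma adjusted p = 0.148). Without that sample the difference was 0.61 and passed (adjusted p = 0.0403). A probe set of similar brightness went the other way, at 66.1, 49.7 and 67.3 in wild type and 33.0, 49.996 and 32.1 in the mutant (log2 -0.51, SE 0.17, limma adjusted p = 0.0946). Over the 7 probe sets 4 differences were above 0 and 3 below, from -0.51 to 0.43, and 0 passed (limma; without adjustment, 1 was higher and 2 were lower at 0.05). The mean of the 7 gave a difference of -0.02 (SE 0.13). Which part of the transcript each probe set covers was not analysed here. The 2 probe sets of nad5 had differences of 0.07 and 0.41 (SE 0.20 and 0.22).

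**Figure D2:**
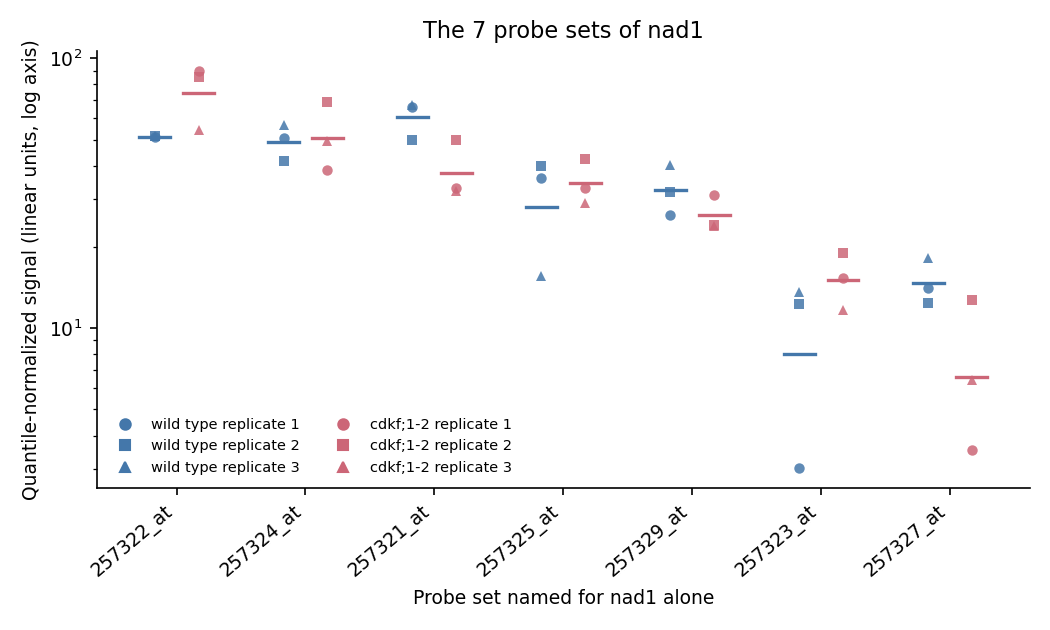
Quantile-normalized signal (linear units on a log axis) of the 7 probe sets listed for nad1 alone, from the brightest to the dimmest, in each of the 6 samples, with a bar at the geometric mean of each group. The brightest probe set has the mutant above wild type, the third has the mutant mostly below it, and the others overlap.

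Neither complex IV gene passed. For cox1, the catalytic subunit that binds oxygen, signals were 77.9, 54.8 and 75.9 in wild type and 76.2, 94.3 and 51.1 in the mutant, so the highest and the lowest sample were both mutants (log2 0.05, SE 0.21, 95% interval -0.44 to 0.55, limma adjusted p = 0.907). For cox2, the subunit that takes electrons from cytochrome c, they were 22.9, 14.3 and 35.0 in wild type and 25.2, 31.4 and 27.3 in the mutant (log2 0.16, SE 0.20, 95% interval -0.29 to 0.62, limma adjusted p = 0.644). Here the mutant samples lay within the range of wild type.

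Of the 4 genes of cytochrome c maturation 0 passed (limma; without adjustment, 2 were higher and 0 lower at 0.05), and in 3 of them the mutant lay above wild type without overlap. Among all probe sets 14.0% were higher at that unadjusted threshold, and 15.8% had the mutant above wild type without overlap. For ccb206, a subunit of a heme-related transporter, signals were 43.1, 43.5 and 41.9 in wild type and 110, 66.5 and 56.7 in the mutant. This was the largest positive difference of the 14 (log2 0.63, SE 0.21, 95% interval 0.15 to 1.12, limma adjusted p = 0.0863). For ccb452, a part of the heme lyase, they were 71.8, 83.3 and 82.0 in wild type and 153, 117 and 99.6 in the mutant (log2 0.53, SE 0.16, 95% interval 0.15 to 0.92, limma adjusted p = 0.0722). The wild type samples of ccb206 lay close together, while its mutant samples ranged widely, with replicate 1 highest.

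For ccb382, another part of the heme lyase and the brightest probe set of the 14, signals were 363, 351 and 345 in wild type and 596, 480 and 372 in the mutant (log2 0.41, SE 0.18, 95% interval -0.0026 to 0.82, limma adjusted p = 0.172). The third heme lyase gene, ccb203, did not share the pattern: its signals were 11.2, 19.7 and 38.1 in wild type and 26.5, 26.0 and 5.30 in the mutant. These groups overlapped, with mutant replicate 3 the lowest of the 6 samples and wild type replicate 3 the highest (log2 -0.16, SE 0.34, limma adjusted p = 0.814).

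**Figure D3:**
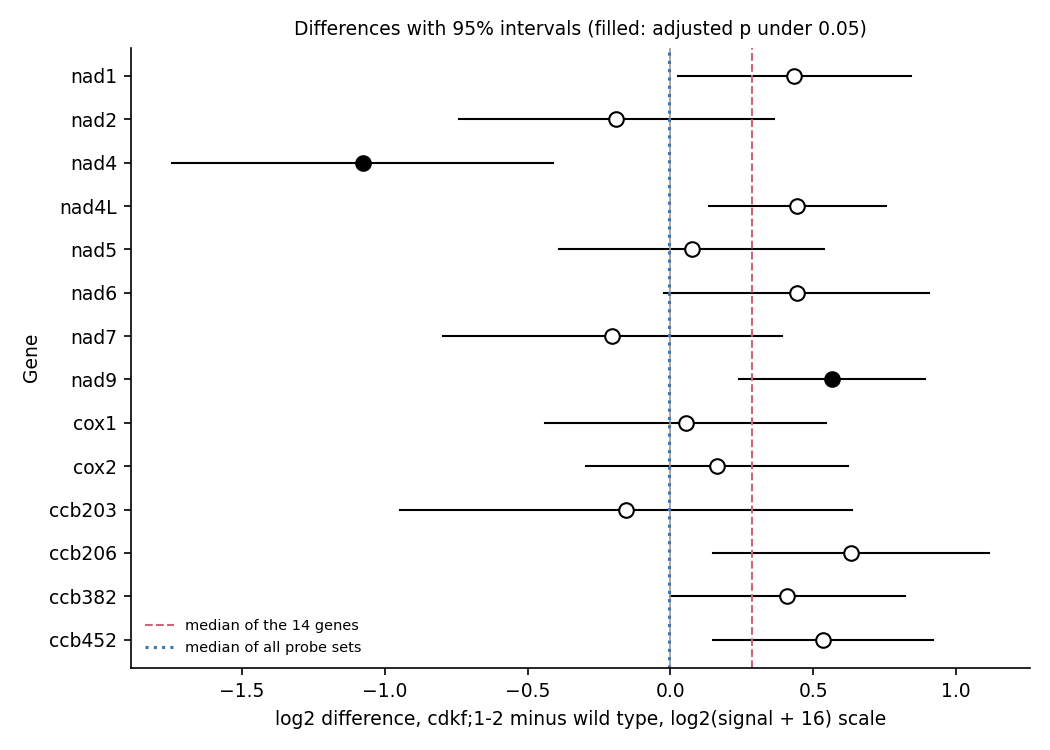
Difference between cdkf;1-2 and wild type (log2 scale, points) with 95% intervals from limma for the 14 genes; filled points passed the adjusted threshold. Filled points are nad4 at -1.08 and nad9 at 0.57, and the dashed and dotted lines mark the medians of the 14 genes (0.29) and of all probe sets (-0.01).

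Mutant samples differed among themselves more than wild type samples did in several genes. After normalization mutant replicate 1 was the highest sample for nad4L, nad9, ccb206, ccb382, ccb452 and nad1, and mutant replicate 3 was the lowest mutant sample for nad1, ccb206, ccb382 and ccb452. The median deviation of the 14 genes from their own means was 0.27, 0.22 and 0.01 in mutant replicates 1 to 3, while wild type replicates 1 to 3 stood at -0.19, -0.19 and -0.06. On the deposited scale the order within the mutant changed. There ccb382 read 346, 393 and 310 in wild type and 384, 495 and 507 in the mutant, so mutant replicate 1, the array with the lowest median, was the lowest mutant sample and overlapped wild type. On that scale 5 of the 14 genes still had the mutant above wild type without overlap, against 7.19% of all probe sets, and 1 below, against 11.2%. Limma called 0 of the 14 there and 1.44% of all probe sets.

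The sign of the median of the 14 genes depended on the scaling between arrays. Their median was log2 0.24 on the deposited values, 0.31 after median centring, 0.21 with trimmed mean scaling and 0.46 with hybridisation spike scaling. With poly(A) control scaling it was -0.24. The median of all probe sets moved with it, to 0.17 under the hybridisation spikes and -0.50 under the poly(A) controls. Relative to all probe sets the 14 genes stood at 0.29 in the quantile setting and at 0.26 to 0.29 in the other 5. A scaling shifts the probe sets of an array nearly alike, so this distance is almost fixed by construction and is no sign of stability. With pseudocounts of 1 and 64 it was 0.37 and 0.13. The genes called differed: 5 (nad4L, nad9, ccb206, ccb382 and ccb452) passed under the hybridisation spikes, where 9.59% of all probe sets did, and 1 (nad4) under the poly(A) controls, where 49.3% did.

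**Figure D4:**
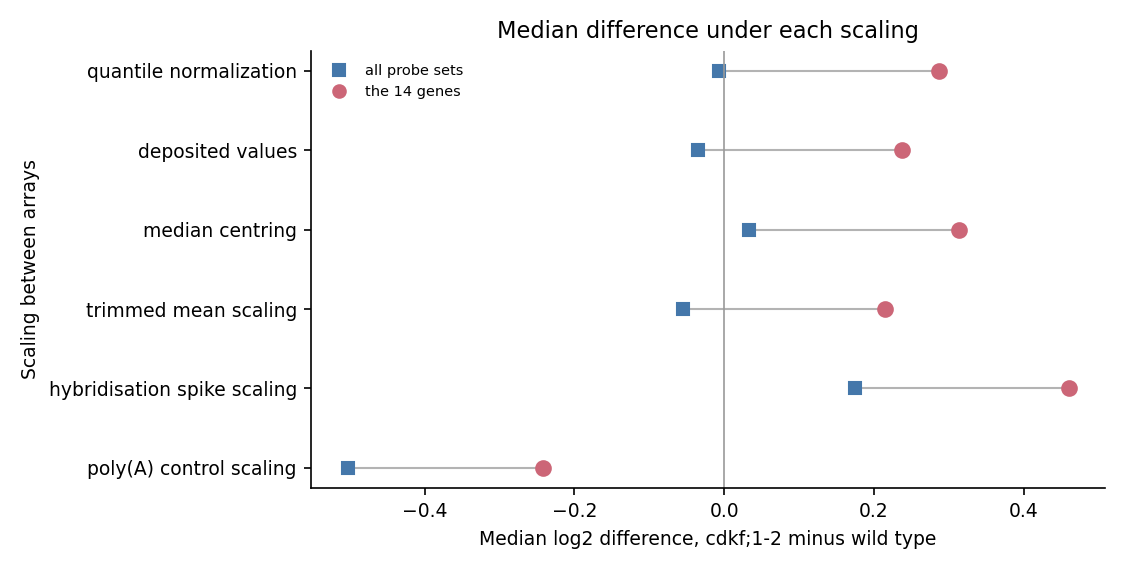
Median log2 difference between cdkf;1-2 and wild type for the 14 genes (circles) and for all probe sets (squares) under 6 scalings between arrays. Poly(A) control scaling puts both below 0; the distance between circle and square, 0.26 to 0.29, is nearly fixed by construction, since a scaling shifts all probe sets of an array nearly alike.

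Other mitochondrial transcripts were measured in part. Of 2 other mitochondrion-encoded genes listed alone for a probe set, 0 passed (limma; without adjustment, 0 at 0.05). Both probe sets are of the kind that matches several transcripts. Signals of matR, the intron maturase gene, were 3.97, 2.59 and 1.26 in wild type and 1.37, 1.69 and 2.11 in the mutant (log2 -0.07, SE 0.12). Signals of orfX, which RefSeq calls mttB and which encodes a transporter-like membrane protein, were 79.9, 61.3 and 75.7 in wild type and 91.8, 79.5 and 69.1 in the mutant (log2 0.12, SE 0.15, and -0.49 under poly(A) control scaling). A further 12 probe sets listed several genes, among them a mitochondrial gene, and are not named. Of these, 12 had differences above 0 (median log2 0.25, range 0.07 to 0.92) and 0 passed (limma; without adjustment, 4 were higher and 0 lower at 0.05). Among all probe sets 49.0% were above 0, and 14.0% were higher at 0.05 without adjustment.

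The nuclear genome of Arabidopsis carries a large copy of mitochondrial DNA on chromosome 2, so the array cannot separate transcripts of near-identical copies. In a group formed after the annotation was seen, 34 chromosome 2 genes had locus numbers from AT2G07670 to AT2G07777; whether each lies in the inserted DNA was not tested. Of these 28 were above 0 (82.4%, median log2 0.23), against 49.0% of all probe sets. Limma called 3 higher and 0 lower, which is 8.82%, below the 14.4% called among all probe sets. The 3, named after their values were seen, were AT2G07773 (log2 0.78, SE 0.20), AT2G07722 (log2 0.65, SE 0.17) and AT2G07739 (log2 0.53, SE 0.14), with limma adjusted p = 0.0432, 0.0428 and 0.0481. Under poly(A) control scaling these differences were 0.31, 0.07 and 0.10. AT2G07773 lost its call without any sample but wild type replicate 2 (adjusted p = 0.0612 to 0.127), AT2G07722 without any sample but mutant replicate 3 (adjusted p = 0.0509 to 0.139), and AT2G07739 without any of the 6 (adjusted p = 0.0556 to 0.131). In the plastid genome, the other organelle genome, 69 genes had a median difference of -0.04, and 3 rose and 0 fell, which is 4.35% called. The difference between the 14 genes and these groups was not tested.

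Nuclear genes of the same pathway were taken from 9 lists assembled from textbook knowledge, and 42 of their 103 genes had a named probe set. The lists were chosen with earlier results of these data known, so their calls are not an independent check. Among all probe sets limma called 14.4%, with 6.94% higher and 7.42% lower. For complex I 0 of 7 measured genes passed (limma; without adjustment, 0 at 0.05), with a median of log2 0.08 and a range of -0.18 to 0.27. The brightest of them were AT3G08610 (log2 0.27, SE 0.23) and AT5G11770 (log2 0.12, SE 0.12). For complex II 0 of 4 passed (median -0.10, range -0.54 to -0.02, limma; without adjustment, 0 at 0.05) and for complex IV 0 of 4 (median 0.08, limma; without adjustment, 0 at 0.05). The iron-sulfur subunit genes SDH2-1 and SDH2-2 of complex II had differences of -0.02 and -0.04, and the flavoprotein subunit genes SDH1-1 and SDH1-2, named after their values were seen, of -0.17 (SE 0.17) and -0.54 (SE 0.25). The brightest complex IV genes, AT4G37830 and AT3G15640, had differences of -0.02 and 0.03. Under poly(A) control scaling, where the median of all probe sets was -0.50, limma called 2 of these complex I genes, 4 complex II genes and 1 complex IV gene, with 49.3% of all probe sets called. No nuclear ATP synthase gene of the 6 listed was measured by name. In the list of complex III subunits and cytochrome c, 1 of 6 rose. It was CYTC-1, which encodes cytochrome c, the carrier that receives its heme from the ccm pathway. CYTC-1 signals were 2953, 3370 and 3101 in wild type and 3913, 5104 and 4727 in the mutant (log2 0.54, SE 0.14, limma adjusted p = 0.0452), and all mutant samples lay above wild type. Its call was lost without wild type replicates 1, 2 or 3 (adjusted p = 0.131, 0.0983 and 0.112) and without mutant replicates 2 or 3 (adjusted p = 0.142 and 0.126), and the difference was 1.07 under hybridisation spike scaling and 0.10 under poly(A) control scaling. MPPBETA (log2 0.10, SE 0.17) and AT1G51980 (log2 -0.00086, SE 0.22), the brightest genes that did not pass, had overlapping groups.

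Of 4 measured nuclear genes for cytochrome assembly, 1 rose and 0 fell, where limma called 6.94% of all probe sets higher and 7.42% lower. CCMH, the nuclear-encoded partner of the ccb proteins, read 49.1, 53.9 and 60.9 in wild type and 101, 88.7 and 94.7 in the mutant. The mutant samples were all higher and close together (log2 0.65, SE 0.12, limma adjusted p = 0.0139). The call was lost without wild type replicate 1 or 2 (adjusted p = 0.0562 and 0.0630) and without mutant replicate 3 (adjusted p = 0.0503), and the difference was 0.04 under poly(A) control scaling. The list median was -0.20, and the brightest genes that did not pass were AT1G02410 (log2 0.03, SE 0.12) and AT1G53030 (log2 -0.42, SE 0.47).

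Alternative respiratory enzymes bypass the proton-pumping complexes, and 3 of 5 measured ones passed, where limma called 14.4% of all probe sets. NDB4, an external NAD(P)H dehydrogenase gene, rose from wild type signals of 5.83, 4.81 and 12.0 to mutant signals of 83.1, 72.4 and 67.6 (log2 1.95, SE 0.15, limma adjusted p = 0.000645). Its size depended on the added constant and was 3.22 with 1 in place of 16. NDB2, another gene of that family, rose from 132, 114 and 99.2 to 311, 256 and 234 (log2 1.11, SE 0.16, limma adjusted p = 0.0047). The NDB2 call was lost on the deposited values (log2 1.01, adjusted p = 0.0964) and under poly(A) control scaling (log2 0.43, adjusted p = 0.0916). NDC1 fell, from 392, 354 and 386 to 250, 244 and 214 (log2 -0.64, SE 0.12, limma adjusted p = 0.0136). In each of the 3 genes the groups did not overlap. The NDC1 call was lost without wild type replicate 1 (adjusted p = 0.0530) and without mutant replicate 3 (adjusted p = 0.0539), and the difference was -0.38 under hybridisation spike scaling and -1.29 under poly(A) control scaling. NDB1 (log2 -0.04, SE 0.15) and NDB3 (log2 -0.21, SE 0.13) did not pass.

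In a list of organelle RNA polymerases and mitochondrial RNA processing factors, 1 of 6 measured genes rose and 1 fell. Among all probe sets limma called 6.94% higher and 7.42% lower. AT5G46920 fell from wild type signals of 193, 126 and 123 to mutant signals of 59.5, 64.7 and 55.7 (log2 -1.08, SE 0.18, limma adjusted p = 0.00877). On the deposited values the AT5G46920 call was lost (log2 -1.16, limma adjusted p = 0.0775). AT5G14580 rose from 45.8, 51.9 and 41.7 to 84.9, 68.3 and 66.4 (log2 0.51, SE 0.14, limma adjusted p = 0.0463), with a difference of -0.07 under poly(A) control scaling. Its call was lost when any of the 6 samples was left out (adjusted p = 0.0649 to 0.126). AT5G04050 (log2 0.08, SE 0.19) and OTP43, a factor for splicing of a nad1 intron (log2 -0.11, SE 0.13), did not pass.

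Genes that plants induce when mitochondrial function is disturbed were the list with the highest median, log2 1.76 over 6 measured genes of 11. Of these 5 rose and 0 fell, where limma called 6.94% of all probe sets higher and 7.42% lower. The list was drawn up when the large rise of AT2G04050 in these samples was known, so its direction is not independent evidence. AT2G04050 went from wild type signals of 35.8, 53.0 and 45.2 to mutant signals of 819, 840 and 861 (log2 3.83, SE 0.14). AT2G41730 rose from 66.4, 106 and 126 to 312, 484 and 538 (log2 2.00, SE 0.26), AT2G32020 rose by log2 1.80 (SE 0.18), and AT2G04070 rose by log2 1.72 (SE 0.16). On the deposited values AT2G41730 and AT2G32020 lost their calls (limma adjusted p = 0.0920 and 0.0610). The gene that did not pass in the reported setting, AT5G09570, had a difference of 0.40 (SE 0.20), and -0.24 under poly(A) control scaling.

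**Figure D5:**
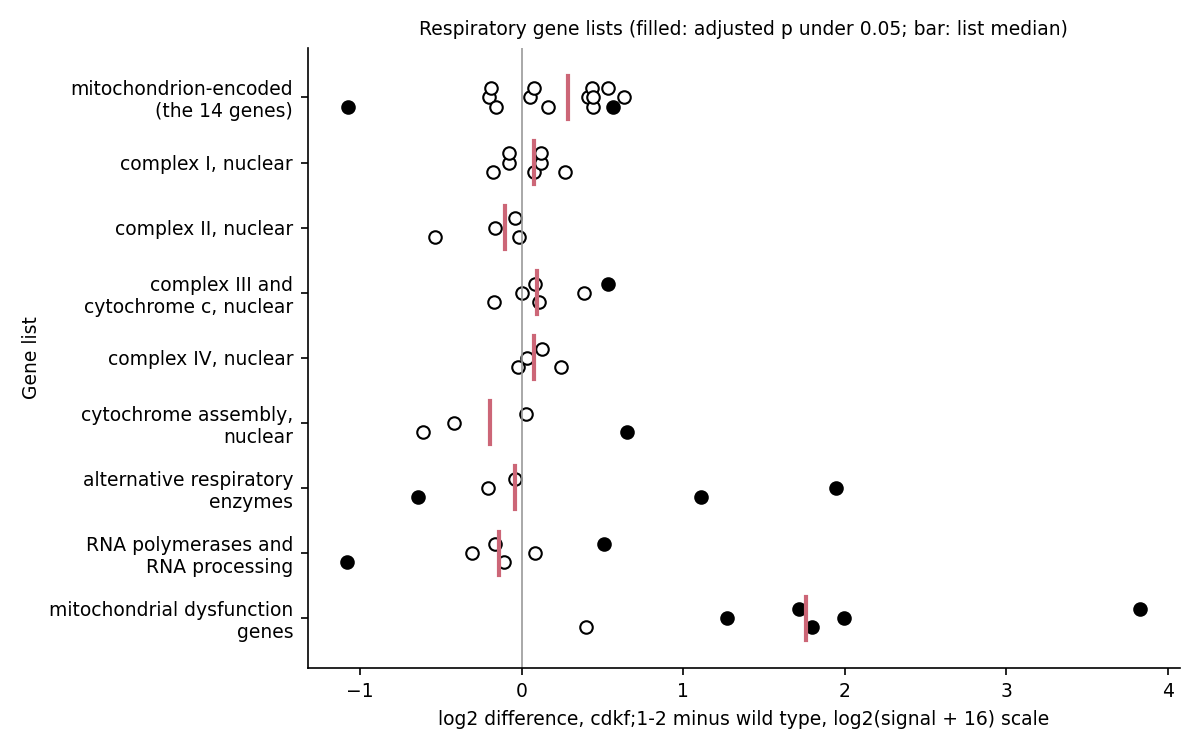
Difference between cdkf;1-2 and wild type (log2 scale) for each measured gene of the 14 mitochondrion-encoded genes and of 8 nuclear lists; filled points passed the adjusted threshold and the red bar is the list median. Nuclear complex I, II and IV genes have no filled point and range from -0.54 to 0.27, and 5 of 6 genes of the mitochondrial dysfunction list are filled at the right.

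By Pearson correlation over the 6 samples, the named genes closest to the mean of the 14 were DLAH (r = 0.994), AT5G41190 (r = 0.982), AT4G34660 (r = 0.976), AT3G25260 (r = 0.973) and AT2G36950 (r = 0.972). The search covered all other named genes over 6 samples, and all points share the normalization. Of the 5, AT2G36950 rose (log2 0.78, SE 0.20, limma adjusted p = 0.0420), a call that was lost without any sample but mutant replicate 3 (adjusted p = 0.0605 to 0.141). The differences of the other 4 lay between log2 0.19 and 0.59 and did not pass; AT3G25260 passed without mutant replicate 3 (log2 0.82, adjusted p = 0.0234).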

How the data were processed

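The authors deposited 1 linear intensity per probe set and sample for 22810 probe sets. Per the submitters' processing notes GCOS, the array maker's software, was used. Its settings and scaling: not given in the sources used here. Quantile normalization over the whole table came first, and differences are of log2(intensity + 16). Leaving out 64 controls, 22746 probe sets entered limma 3.58.1 (R 4.3.3; lmFit, then eBayes; no term but genotype; two-sided), with Benjamini-Hochberg adjustment over all of them and a threshold of 0.05. No detection calls were used. Genes came from the array annotation and the RefSeq table of TAIR10.1, by locus or, for mitochondrial genes, by symbol; 13513 probe sets had 1 gene, 503 several and 8730 none listed. The brightest probe set, by its mean over all samples of both genotypes, stood for a gene.

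Every member is named. Of the nuclear lists the text names up to 4 genes past the threshold, largest change first, with up to 2 of the brightest that did not pass, and of genes like the members the 5 with the highest correlation. Members and lists were chosen with earlier results of these data known. Control probe sets were compared by exact permutation tests. The fit was tested on simulated data. Alternatives were 5 other scalings, filters on the 40% or 60% dimmest probe sets, pseudocounts of 1 and 64, a trended robust prior, array weights, a replicate block, leaving out each sample, and averaging the probe sets of a gene. No sequences are shown. The number of arrays limits the precision.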

Additional observations from a re-analysis of the deposited data

How the results depend on the processing

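The count of mitochondrion-encoded genes called higher was 1 and of those called lower 1 in the reported setting. Called higher were 0 on the deposited values, with trimmed mean scaling, with poly(A) control scaling, without the 60% dimmest probe sets, with a pseudocount of 1 and with the replicate block, 2 without the 40% dimmest probe sets (which keeps 5 of the 14 genes, against 1 with 60%) and 5 with hybridisation spike scaling. Called lower were 0 on the deposited values, with hybridisation spike scaling, without the 40% or 60% dimmest probe sets and with a pseudocount of 1. Of all probe sets limma called 14.4% in the reported setting, 1.44% on the deposited values and 14.2% with trimmed mean scaling. The share was 49.3% with poly(A) control scaling and 9.59% with hybridisation spike scaling. It was 26.2% without the 40% dimmest, 27.9% without the 60% dimmest, 9.33% with a pseudocount of 1 and 14.9% with the replicate block. Both filters on dim probe sets removed nad4 and nad9, so these genes were not tested there. The 2 called higher without the 40% dimmest were ccb206 and ccb452. Leaving out 1 sample gave 0 to 1 in each direction, where 6.58% to 18.1% of all probe sets were called. The median of the 14 became 0.46 with hybridisation spikes, 0.13 with a pseudocount of 64 and -0.24 with poly(A) control scaling. The 5 genes kept without the 40% dimmest had a median of 0.43. The 1 gene kept without the 60% dimmest, ccb382, had a difference of 0.41. Deviations from the genotype means correlated at 0.30, 0.01 and 0.15 between samples of the same replicate number. Between samples of different numbers they correlated at -0.24 to 0.15. Whether the replicate numbers pair the samples was not tested. With the replicate block nad9 kept its difference of 0.57 at adjusted p = 0.0508, and AT5G14580, AT2G07739 and AT2G36950 missed the threshold (adjusted p = 0.0583, 0.0729 and 0.0757). Over 17 alternatives nad4 kept its call in 9 and nad9 in 6, with no change of sign.

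All probe sets called higher numbered 1579 and lower 1688. The counts were 150 and 178 on the deposited values, 490 and 10733 with poly(A) controls, and 2682 and 2930 with array weights. Those called lower were 427 with hybridisation spikes and 1046 with a pseudocount of 1. Leaving out 1 sample gave 809 to 2076 higher and 687 to 2031 lower. Of all calls, 48.3% were higher in the reported setting, 57.5% with median centring, 80.4% with hybridisation spikes and 4.37% with poly(A) controls.

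Signs turned in single genes that did not pass. With poly(A) controls they were ccb382 (-0.23), ccb452 (-0.12), cox1 (-0.54), cox2 (-0.25), nad1 (-0.16), nad4L (-0.015), nad5 (-0.37), orfX (-0.49), AT5G09570 (-0.24), DLAH (AT1G30370, -0.24), AT5G41190 (-0.44) and AT4G34660 (-0.48), and AT5G14580, which had passed (-0.075). For cox1 the difference was -0.036 on the deposited values and -0.056 with the trimmed mean, and for nad2 and nad7 0.014 and 0.059 with array weights. Leaving out 1 sample turned cox1 (-0.11 to 0.24), cox2 (-0.020 to 0.36), nad5 (-0.092 to 0.23), ccb203 (-0.39 to 0.17), nad2 (-0.45 to 0.0096) and nad7 (-0.41 to 0.092). For nad1 the mean of its probe sets gave -0.024. Signal over background limits the dim genes most, and without detection calls it is not stated which of the 14 lay above it.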
